A study of Mus musculus with 12 samples.

Results

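The genes that make bile acids and carry them across the hepatocyte were followed in liver RNA of 12 mice measured on Affymetrix arrays, with 1 array per animal. The set was 10 genes taken by name, with earlier results of these data known, of 18193 genes that the platform table names: the enzymes Cyp7a1, Cyp7b1, Cyp8b1, Cyp27a1, Akr1d1 and Baat, and the transporters Slc10a1, Abcb11, Slco1a1 and Slco1b2. The arrays held 22 probe sets for them, and each gene was read from its brightest probe set, the one with the greatest average level across the animals. The animals formed 4 groups of 3: wild-type mice (Atf6a genotype +/+) given vehicle, Atf6a-/- mice given vehicle, wild-type mice given tunicamycin (TM) and Atf6a-/- mice given TM. TM was injected into the peritoneum at 1 mg/kg in 150 mM dextrose, the vehicle was dextrose alone, and livers were taken 34 h later from animals fasted for 4 h. The source field of the labels gives 8 h, but titles and protocol give 34 h. TM blocks N-linked glycosylation and so causes stress in the endoplasmic reticulum (ER). ATF6a is an ER membrane protein that is cleaved under stress to free a transcription factor, and the part of the gene removed in these mice is not given in the sources used here. The mice were of variable age and of both sexes, neither of which is given per animal, and the tissue was homogenate of whole liver, in which fewer cells of a type and less RNA per cell cannot be told apart.

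Hepatocytes turn cholesterol into bile acids by a classic route that opens with 7a-hydroxylation by Cyp7a1 and an alternative route in which Cyp27a1 oxidises the side chain and Cyp7b1 hydroxylates the ring. Cyp8b1 adds the 12a-hydroxyl group of cholic acid, Akr1d1 reduces the ring, and Baat joins the product to taurine or glycine. Slc10a1 (NTCP) takes conjugated bile acids up from the blood, Slco1a1 and Slco1b2 are organic anion carriers of the same sinusoidal membrane, and Abcb11 (BSEP) pumps bile salts into the canaliculus.

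Values are log2 levels after robust multi-array averaging (RMA), and a change of 1 is 2-fold. The first principal component over all probe sets held 68.3% of the variance, and on it wild-type TM animal 2 stood at 29.5 against -12.9 and -11.9 for the other animals of its group. Atf6, the targeted gene, was at 8.54, 8.42 and 8.49 in the wild-type vehicle animals and at 6.88, 6.85 and 6.60 in the Atf6a-/- vehicle animals. After TM both genotypes held this probe set at 9.23 to 9.81. Of the 2 dimmer Atf6 probe sets, 1 was at 7.36 to 7.97 in wild-type TM and at 8.97 to 9.11 in Atf6a-/- TM animals (1.43 ± 0.14, adjusted p = 3.03e-05), and the other was also higher there (0.53 ± 0.11, adjusted p = 0.00442, under 1.5-fold), against the direction that the genotype labels give. Whether these probes lie in the deleted part is not known, so that Atf6 bears out the labels of the vehicle groups and not those of the TM groups, which are named as labelled throughout. Xist, the RNA of the inactive X chromosome, was at 12.19 to 12.39 in 3 animals, those numbered 1 in every group but wild-type TM, and at 5.37 to 6.68 in the other 9 animals, which include all wild-type TM animals. The Y-linked gene Eif2s3y ran the other way, at 3.04 to 3.33 in those 3 animals and at 7.80 to 9.05 in the rest. All 9 hepatocyte markers measured (albumin and other plasma proteins) lay above the highest array median of 4.71 in every group.

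Promoter windows of GRCm38.p6 from RefSeq, from 250 bases before to 50 bases after the transcription start, were found for 7 of the 10 genes, in 8 windows. The windows of Cyp8b1, Slco1b2 and Slc10a1 are shown because the gap between the responses of the genotypes was widest for these members. That of Abcb11 is shown because it is the export pump and fell less. The window of Akr1d1, the next member by that gap, is not shown. Capitals mark exact matches, on either strand, to the motifs searched: AGGTCA, the core of many nuclear receptor sites, with its longer LRH-1 forms CAAGGTCA and CAAGGCCA, CAAAGTCCA of the HNF4a type, TTNNGCAAT of the C/EBP type, TATAAA of the TATA box, the ER stress element core CCACG and TGACGTGG of the unfolded protein response element. CAAGGTCA holds AGGTCA within it, and the reverse complement of TGACGTGG holds CCACG. The sequences run from 5′ to 3′ on the strand of the gene. Slc10a1 has a pair of starts in the table, and the window with an AGGTCA match is shown.
Cyp8b1, chr9:121916256-121916555, minus strand: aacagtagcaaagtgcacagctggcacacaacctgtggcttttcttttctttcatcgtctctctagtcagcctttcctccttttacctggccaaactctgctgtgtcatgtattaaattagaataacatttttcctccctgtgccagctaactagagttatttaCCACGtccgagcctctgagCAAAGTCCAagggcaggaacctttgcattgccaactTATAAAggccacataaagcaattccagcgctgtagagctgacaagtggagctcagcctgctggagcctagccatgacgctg
Slco1b2, chr6:141629268-141629567, plus strand: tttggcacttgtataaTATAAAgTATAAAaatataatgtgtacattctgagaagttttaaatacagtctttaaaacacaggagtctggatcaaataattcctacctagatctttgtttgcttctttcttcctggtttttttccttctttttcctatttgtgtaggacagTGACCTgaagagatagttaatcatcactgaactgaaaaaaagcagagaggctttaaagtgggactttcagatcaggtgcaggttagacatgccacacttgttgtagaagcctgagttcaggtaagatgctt
Slc10a1, chr12:80968030-80968329, minus strand: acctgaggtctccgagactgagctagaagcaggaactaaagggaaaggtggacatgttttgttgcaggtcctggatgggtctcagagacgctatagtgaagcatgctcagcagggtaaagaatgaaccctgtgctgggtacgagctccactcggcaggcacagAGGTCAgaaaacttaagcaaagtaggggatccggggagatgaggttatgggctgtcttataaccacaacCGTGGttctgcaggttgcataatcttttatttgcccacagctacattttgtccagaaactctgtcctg
Abcb11, chr2:69342567-69342866, minus strand: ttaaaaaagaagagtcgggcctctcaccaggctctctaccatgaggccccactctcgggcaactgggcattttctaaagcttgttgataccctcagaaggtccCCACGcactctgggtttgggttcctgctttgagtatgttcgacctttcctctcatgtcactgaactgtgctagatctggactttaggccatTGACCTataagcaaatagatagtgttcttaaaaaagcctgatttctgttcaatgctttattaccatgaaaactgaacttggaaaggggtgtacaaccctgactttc
The Cyp8b1 window held CAAAGTCCA from base -67, a motif found in 0.475% of all 32851 windows, and TATAAA from base -31, found in 13.6%. The Slco1b2 window held AGGTCA from base -81 and TATAAA from bases -234 and -227. TATAAA also stood in the window of Slco1a1 from bases -209 and -99 and in the Slc10a1 window not shown from base -128. AGGTCA, found in 16.3% of all windows, also stood in the windows of Slc10a1 from base -87 and Abcb11 from base -56, in that of Akr1d1 from bases -232 and -210 and in that of Slco1a1 from bases -134 and -24. The Akr1d1 window held TTNNGCAAT from base -8, found in 2.18% of all windows. CCACG stood in the windows of Cyp8b1, Cyp27a1, Slc10a1 and Abcb11 and in 32.8% of all windows. CAAGGTCA, CAAGGCCA and TGACGTGG, in 1.56%, 2.4% and 0.676% of all windows, were in none of the 8. These matches describe the letters of the windows, and binding was not measured.

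Among the enzymes, the mRNA of Cyp7a1, which sets the rate of the classic route, fell after TM in both genotypes and fell further without ATF6a. The wild-type vehicle animals held it at 9.34, 10.57 and 10.20 and the wild-type TM animals at 7.63, 7.07 and 8.56. In the Atf6a-/- vehicle animals it was at 10.99, 10.18 and 10.33, and in the Atf6a-/- TM animals at 5.05, 4.52 and 4.62. The vehicle groups overlapped, while the wild-type TM and Atf6a-/- TM groups each lay apart from all others, in that order downwards. The wild-type decrease was -2.28 ± 0.38 (SE) on the log2 scale, or 4.86-fold (limma adjusted p = 0.00351), and the Atf6a-/- decrease was -5.77 ± 0.38, or 54.5-fold (adjusted p = 4.91e-07). Since 2 of the 3 Atf6a-/- TM animals lay under the highest array median, the larger fold may be limited by the floor of the array. The difference between genotypes after TM was -3.02 ± 0.38 (adjusted p = 0.000164). The dimmer probe set moved the same way (-1.71 ± 0.37 and -3.54 ± 0.37), with a difference after TM that was not called (-1.14 ± 0.37, adjusted p = 0.0536) and in which the Atf6a-/- TM mean lay below that median.

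Cyp8b1, the 12a-hydroxylase, had the greatest contrast between the genotypes' responses among the enzymes. Its levels were 10.68, 11.45 and 12.17 in the wild-type vehicle animals and 12.23, 10.43 and 11.40 in the wild-type TM animals, so that these groups overlapped throughout their range. The Atf6a-/- vehicle animals were at 12.03, 11.87 and 12.38 and the Atf6a-/- TM animals at 5.32, 5.27 and 7.10, below every other animal. The wild-type difference was -0.08 ± 0.54 (adjusted p = 0.966), and the Atf6a-/- decrease was -6.20 ± 0.54, or 73.4-fold (adjusted p = 3.77e-06). After TM the Atf6a-/- level was 44-fold below the wild-type level (-5.46 ± 0.54, adjusted p = 2.75e-05). Cyp8b1 has a single probe set on the array.

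**Figure D1:**
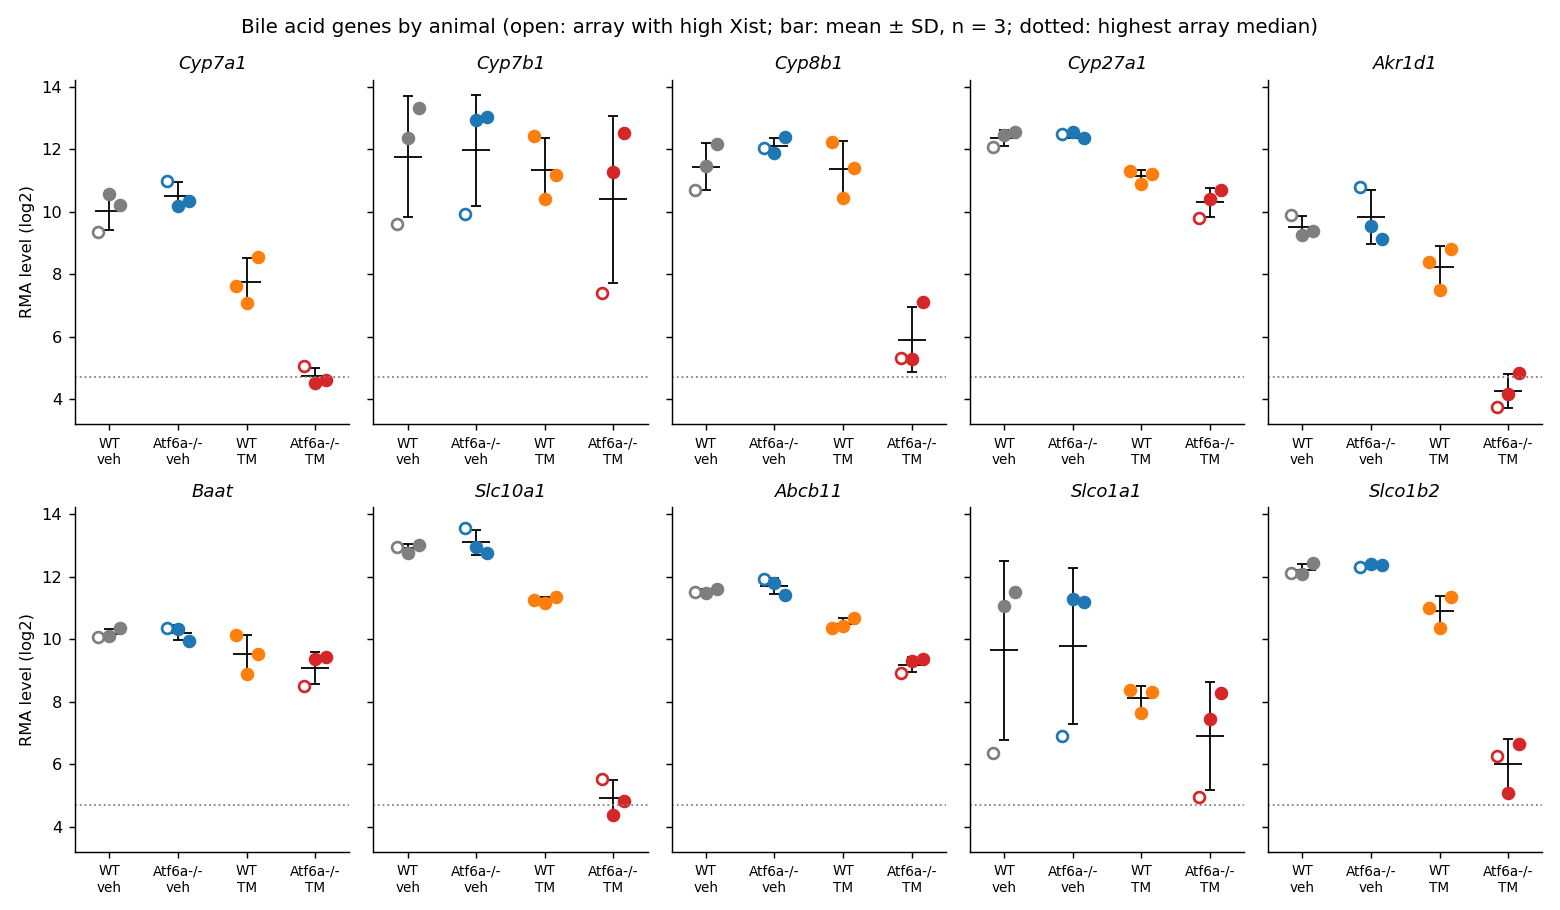
RMA levels (log2) of the 10 bile acid genes in each animal by group (WT, wild-type; veh, vehicle), with group means and SDs (3 animals), open points for the 3 arrays with high Xist and a dotted line at the highest array median of 4.71. The Atf6a-/- TM animals lie below all others for Cyp7a1, Cyp8b1, Cyp27a1, Akr1d1, Slc10a1, Abcb11 and Slco1b2. The share of all genes with such an order was not counted. The open points lie lowest for Cyp7b1 and Slco1a1 within their groups.

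Akr1d1, the 5b-reductase that bends the steroid ring, fell to a mean under the highest array median in Atf6a-/- liver. It was at 9.90, 9.25 and 9.37 in the wild-type vehicle animals and at 8.40, 7.51 and 8.80 in the wild-type TM animals, 2 groups that did not overlap but whose difference of -1.27 ± 0.43 was not called (adjusted p = 0.118). The Atf6a-/- vehicle animals held it at 10.79, 9.53 and 9.14 and the Atf6a-/- TM animals at 3.76, 4.17 and 4.85. That decrease of -5.56 ± 0.43 (adjusted p = 1.59e-06), and the difference of -3.98 ± 0.43 from wild-type TM (adjusted p = 5.56e-05), are lower bounds, since the Atf6a-/- TM mean was under the highest array median. The other Akr1d1 probe set gave -1.34 ± 0.40 for wild-type (adjusted p = 0.0752) and -6.80 ± 0.40 for Atf6a-/- liver.

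Cyp27a1, the mitochondrial sterol 27-hydroxylase, fell in graded steps. It was at 12.06, 12.45 and 12.54 in the wild-type vehicle animals, 12.50, 12.56 and 12.35 in the Atf6a-/- vehicle animals, 11.29, 10.88 and 11.21 in the wild-type TM animals and 9.80, 10.40 and 10.71 in the Atf6a-/- TM animals. The vehicle groups overlapped, and each TM group lay apart. The decrease was 2.34-fold in wild-type (-1.23 ± 0.21, adjusted p = 0.00389) and 4.5-fold in Atf6a-/- liver (-2.17 ± 0.21, adjusted p = 8.05e-06). The difference after TM was -0.82 ± 0.21 (adjusted p = 0.0147), and it was not called without Atf6a-/- TM animal 1 (-0.57), without wild-type TM animal 1 (adjusted p = 0.0573) or without wild-type TM animal 3 (adjusted p = 0.0598). A further Cyp27a1 probe set lay near 3 in all groups and had no measurable signal.

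Baat, the conjugating enzyme, moved least of the enzymes that were called. It was at 10.09, 10.11 and 10.35 in the wild-type vehicle animals and at 10.13, 8.89 and 9.53 in the wild-type TM animals, where the groups overlapped (-0.66 ± 0.30, adjusted p = 0.262). The Atf6a-/- animals held it at 10.38, 10.34 and 9.93 with vehicle and at 8.51, 9.36 and 9.43 with TM. The Atf6a-/- decrease was 2.17-fold (-1.12 ± 0.30, adjusted p = 0.0129), and without Atf6a-/- TM animal 1 it was -0.82 (adjusted p = 0.0567). The TM groups of the genotypes overlapped. The dimmer Baat probe set gave -0.55 ± 0.21 and -1.11 ± 0.21 for the same responses.

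Of the transporters, Slc10a1, the sodium-dependent uptake carrier of bile acids, changed most. Its levels were 12.97, 12.78 and 13.03 in the wild-type vehicle animals and 13.57, 12.96 and 12.78 in the Atf6a-/- vehicle animals, which overlapped. They were 11.27, 11.17 and 11.35 in the wild-type TM animals and 5.53, 4.38 and 4.83 in the Atf6a-/- TM animals, and each of these groups lay apart from all others. The wild-type decrease was 3.17-fold (-1.66 ± 0.26, adjusted p = 0.00209). The Atf6a-/- decrease was 291-fold (-8.18 ± 0.26, adjusted p = 3.62e-09), the change of rank 6 from the lowest among 18193 genes, and the difference between genotypes after TM was 81.4-fold (-6.35 ± 0.26, adjusted p = 4.8e-08), of rank 4. Since 1 of the Atf6a-/- TM animals (4.38) lay under the highest array median, both folds may be limited by the floor of the array. The dimmer Slc10a1 probe set gave -1.84 ± 0.30 in wild-type and -8.36 ± 0.30 in Atf6a-/- liver, the latter with a mean under the highest array median.

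Slco1b2, an organic anion carrier that also takes up unconjugated bile acids, took a similar course. It was at 12.12, 12.10 and 12.43 in the wild-type vehicle animals, 12.32, 12.42 and 12.38 in the Atf6a-/- vehicle animals, 10.99, 10.38 and 11.35 in the wild-type TM animals and 6.26, 5.10 and 6.64 in the Atf6a-/- TM animals. The Atf6a-/- TM animals were the lowest, followed by the wild-type TM animals, and the vehicle groups overlapped. The Atf6a-/- decrease was 83-fold (-6.37 ± 0.33, adjusted p = 8.8e-08), of rank 21 from the lowest, and the level after TM was 29.9-fold below wild-type (-4.90 ± 0.33, adjusted p = 1.93e-06). The wild-type decrease was 2.49-fold (-1.31 ± 0.33, adjusted p = 0.0352). That call was near its threshold: it was lost in 11 of 30 alternatives, among them leaving out wild-type TM animal 1 (adjusted p = 0.0654) or 2 (-1.05, adjusted p = 0.117), any wild-type vehicle animal (adjusted p = 0.0757, 0.0824 and 0.128), or Atf6a-/- vehicle animal 2 (adjusted p = 0.0559) or 3 (adjusted p = 0.0523). Of the other 4 Slco1b2 probe sets, a pair was bright and fell in both genotypes (-1.62 ± 0.32 and -1.33 ± 0.36 in wild-type, -5.87 ± 0.32, a lower bound, and -6.72 ± 0.36 in Atf6a-/- liver), and the other pair lay between 3.55 and 4.19 in every animal.

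Abcb11, the canalicular export pump, fell in both genotypes and was among the members with the least spread. It was at 11.53, 11.49 and 11.63 in the wild-type vehicle animals, 11.93, 11.79 and 11.43 in the Atf6a-/- vehicle animals, 10.36, 10.44 and 10.70 in the wild-type TM animals and 8.92, 9.31 and 9.36 in the Atf6a-/- TM animals. Both TM groups lay apart, in the same order as for Slc10a1. The decrease was 2.07-fold in wild-type (-1.05 ± 0.15, adjusted p = 0.00147) and 5.74-fold in Atf6a-/- liver (-2.52 ± 0.15, adjusted p = 2.51e-07), with a difference after TM of -1.30 ± 0.15 (adjusted p = 9.78e-05).

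Cyp7b1, the 7a-hydroxylase of the alternative route, and Slco1a1, an organic anion carrier, were not called in any comparison. Both varied widely between animals of the groups that hold an array with high Xist (SD 1.73 to 2.86). The spread within wild-type TM was smaller (SD 0.40 for Slco1a1 and 1.02 for Cyp7b1). Slco1a1 was at 6.36, 11.06 and 11.52 in the wild-type vehicle animals and at 6.92, 11.28 and 11.18 in the Atf6a-/- vehicle animals. It was at 8.37, 7.65 and 8.33 in the wild-type TM animals and at 4.97, 7.46 and 8.28 in the Atf6a-/- TM animals. In each of the 3 groups that hold an array with high Xist, that animal was the lowest. Cyp7b1 was at 9.60, 12.34 and 13.33 in the wild-type vehicle animals, 9.93, 12.92 and 13.03 in the Atf6a-/- vehicle animals, 12.42, 10.40 and 11.18 in the wild-type TM animals and 7.41, 11.26 and 12.53 in the Atf6a-/- TM animals. The same 3 animals were again the lowest of their groups. The fitted changes were -1.53 ± 1.42 and -2.89 ± 1.42 for Slco1a1 (adjusted p = 0.666 and 0.166) and -0.42 ± 1.31 and -1.56 ± 1.31 for Cyp7b1 (adjusted p = 0.922 and 0.451) in wild-type and Atf6a-/- liver.

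**Figure D2:**
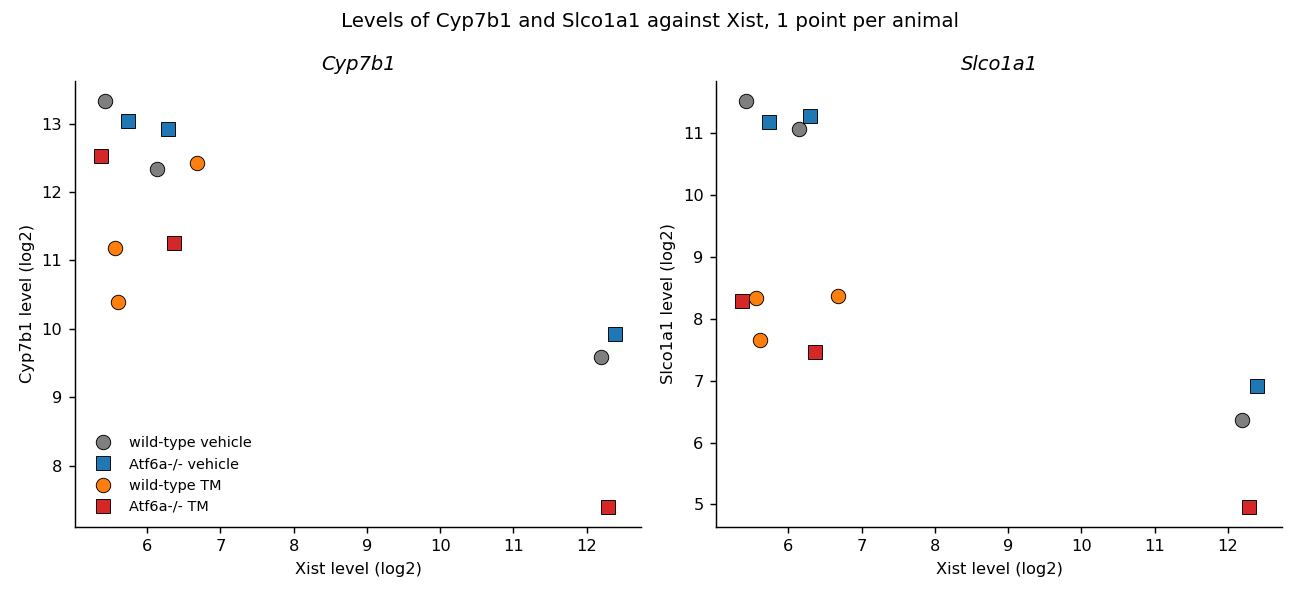
Levels (log2) of Cyp7b1 (left) and Slco1a1 (right) against the level of Xist (log2), 1 point per animal, with colour and shape for the group. The 3 animals with Xist above 12 include the lowest level of both genes in each of their groups, and among the other animals the TM points for Slco1a1 (7.46 to 8.37) lie below the vehicle points (11.06 to 11.52).

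In the vehicle groups, genes known for sex-biased expression in mouse liver followed the same animals. Cyp4a12a, a male-biased cytochrome, was at 4.47 and 3.83 in vehicle animals with high Xist and at 11.44 to 12.11 in the other vehicle animals. Cyp2b9, a female-biased cytochrome, was at 12.20 and 12.42 against 4.14 to 5.83. After TM this did not hold for every such gene. Cyp2b9 was still higher in the Atf6a-/- TM animal with high Xist (9.96 against 4.45 and 4.15). The male-biased gene Hsd3b5 was at 4.13 in that animal and at 3.90 and 4.57 in the other Atf6a-/- TM animals. These Hsd3b5 levels all lay under the highest array median. Without the 3 arrays with high Xist, Slco1a1 fell in both genotypes (wild-type -3.17 ± 0.29, adjusted p = 0.000828, and Atf6a-/- -3.36 ± 0.31, adjusted p = 0.000123), and with the Xist level as a covariate it changed by -2.75 ± 0.42 (adjusted p = 0.00255) and -2.97 ± 0.40 (adjusted p = 0.000169). The interaction without those arrays was -0.19 ± 0.43 (adjusted p = 0.881). Cyp7b1 was called only in Atf6a-/- liver with the covariate (-1.63 ± 0.55, adjusted p = 0.0476), and not without the 3 arrays (-1.08 ± 0.64, adjusted p = 0.303). Baat in Atf6a-/- liver (-0.74 ± 0.34, adjusted p = 0.168), Slco1b2 in wild-type liver (-1.36, adjusted p = 0.124) and the difference of Cyp27a1 after TM (-0.57) were not called without those arrays.

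In the response of wild-type liver to TM, 5 of the 10 genes fell and none rose, where 3.86% of all genes fell and 3.45% rose. A gene was called at an adjusted p under 0.05, over all probe sets, and a change over 1.5-fold. The 5 genes were Cyp7a1, Cyp27a1, Slc10a1, Abcb11 and Slco1b2. The median change of the 10 was -1.25, beside -0.02 for all genes. In Atf6a-/- liver 8 of the 10 fell and none rose, where 12.8% of all genes fell and 15.2% rose, with a median of -4.23 beside -0.01. The members that fell in both genotypes were the 5 named above, and Cyp8b1, Akr1d1 and Baat were called in Atf6a-/- liver alone. Of the 8 called Atf6a-/- decreases, 5 lay between -5.56 and -8.18 and 3 between -1.12 and -2.52, and the uncalled changes of Slco1a1 and Cyp7b1 were -2.89 and -1.56. The comparison of the genotypes after TM shares its Atf6a-/- TM animals with the second response and its wild-type TM animals with the first. It called 7 members lower and none higher in Atf6a-/- liver (median -2.16), where 8.45% of all genes were lower and 11.3% higher.

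**Figure D3:**
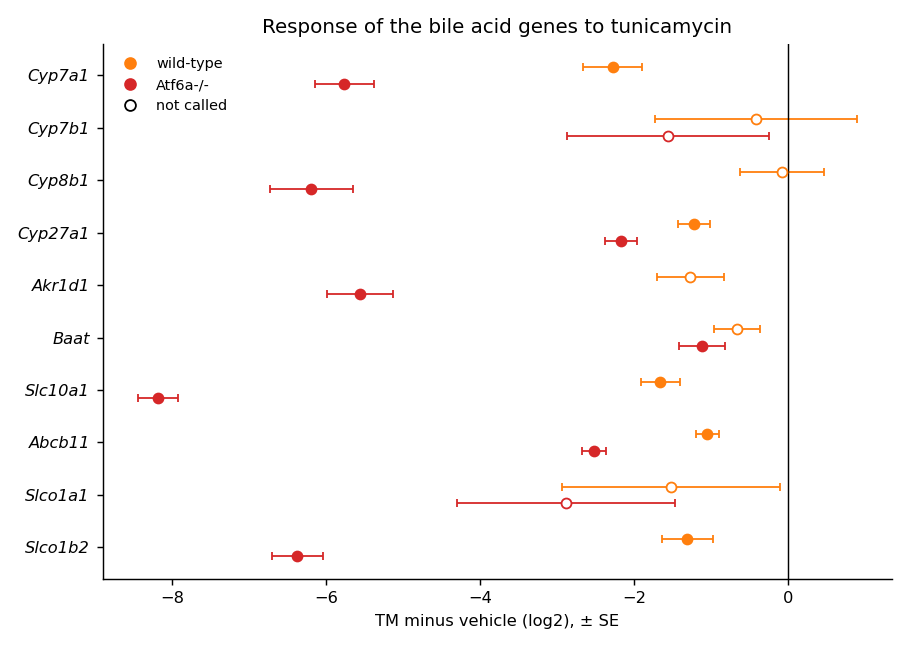
Change from vehicle to TM (log2, points) with its SE (bars) for each bile acid gene in wild-type and Atf6a-/- liver, filled where called. Every point lies below 0, and the gap between the genotypes is widest for Slc10a1, Cyp8b1 and Slco1b2.

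Whether the responses of the genotypes differed was tested by the interaction, the Atf6a-/- response minus the wild-type response. It was called for 6 of the 10 genes, each with a deeper decrease in Atf6a-/- liver, where 6.69% of all genes were called lower and 7.56% higher. It was -6.52 ± 0.36 for Slc10a1 (adjusted p = 2.08e-06), of rank 4 from the lowest, -6.12 ± 0.76 for Cyp8b1 (adjusted p = 0.000419), of rank 7, and -5.06 ± 0.47 for Slco1b2 (adjusted p = 6.89e-05). For Akr1d1 it was -4.29 ± 0.61 (adjusted p = 0.000987), for Cyp7a1 -3.49 ± 0.54 (adjusted p = 0.00166) and for Abcb11 -1.47 ± 0.22 (adjusted p = 0.00123). Cyp27a1 was just outside at -0.94 ± 0.30 (adjusted p = 0.066), and Baat was at -0.46 ± 0.42 (adjusted p = 0.631). Without TM no difference between the genotypes was called in the 10 genes. By limma 0 were called and 0 had an unadjusted p under 0.05, and the methods' t-test gave the same counts. Equal levels are not shown by this, since the SEs ran up to 1.42 for Slco1a1. The differences ran from 0.04 for Baat to 0.66 ± 0.54 for Cyp8b1, all toward a higher level in Atf6a-/- liver, and 0.0055% of all genes, which is Atf6 alone, was called.

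The other enzymes and carriers of synthesis and conjugation moved in both directions. Of 14 measured, 3 fell and none rose in wild-type liver, while 9 fell and 2 rose in Atf6a-/- liver (medians -0.30 and -1.73), against the shares of all genes given above. Cyp2c70, which hydroxylates chenodeoxycholic acid to the muricholic acids of rodents, fell in both genotypes, with -1.76 ± 0.38 (adjusted p = 0.0161) for wild-type and -5.45 ± 0.38 for Atf6a-/- liver (adjusted p = 7.33e-07). Slc27a5, the bile acid CoA ligase that acts before Baat, was at -0.90 ± 0.25 in wild-type (adjusted p = 0.0507) and fell by 3.92 ± 0.25 in Atf6a-/- liver (adjusted p = 3.29e-07). Hsd3b7, which oxidises the 3b-hydroxyl group after the 7a-hydroxylation, fell in both, with changes of -1.85 ± 0.18 and -1.76 ± 0.18 (adjusted p = 0.000121 and 1.44e-05) and an interaction of 0.08 ± 0.26 (adjusted p = 0.915). The rises were those of Ch25h, a cholesterol hydroxylase, by 2.03 ± 0.27 from a vehicle mean below the highest array median, and of Cyp2a12, a bile acid 7a-hydroxylase, by 0.88 ± 0.26 (adjusted p = 0.0238).

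Of 6 other sinusoidal carriers, 1 fell in wild-type and 3 fell and 1 rose in Atf6a-/- liver (medians -0.17 and -1.20), where 3.86% and 12.8% of all genes fell and 3.45% and 15.2% rose. Slco2b1, an organic anion carrier, fell in both genotypes (wild-type -1.60 ± 0.16, Atf6a-/- -2.25 ± 0.16). Slco1a4 and the basolateral efflux pump Abcc3 were called in Atf6a-/- liver alone (-3.10 ± 0.40 and -2.53 ± 0.31), with called interactions (adjusted p = 0.00588 and 0.00567). Abcc4, a basolateral efflux pump that can return bile acids to the blood, rose by 3.57 ± 0.65 in Atf6a-/- liver (adjusted p = 0.00116) beside 0.53 ± 0.65 in wild-type. Its interaction of 3.04 ± 0.93 was not called (adjusted p = 0.0586). In this list the interaction was called lower for 2 carriers and higher for none, where 6.69% of all genes were lower and 7.56% higher. Without wild-type TM animal 2 it was called lower for 3 carriers and higher for 1.

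Of 7 other canalicular transporters, 1 fell in wild-type and 4 in Atf6a-/- liver, and none rose (medians -0.27 and -1.78), beside the same shares of all genes, 3.86% and 12.8% for falls. The sterol exporter subunits Abcg5 and Abcg8 fell in Atf6a-/- liver, Abcg5 by at least 6.29 ± 0.24 (adjusted p = 1.15e-08), as its TM mean lay under the highest array median, and Abcg8 by 2.94 ± 0.20. Their wild-type changes were -0.52 ± 0.24 and -0.33 ± 0.20, neither called. Atp8b1, the flippase of the canalicular membrane, fell in both genotypes (wild-type -0.77 ± 0.20, adjusted p = 0.0358, and Atf6a-/- adjusted p = 9.29e-06). The wild-type call of Atp8b1, the only one in this list, was lost without the arrays with high Xist and without wild-type TM animal 2, and in the latter case 1 gene of the list rose. Of 3 genes of bile acid sulfation and hydroxylation, the sulfotransferase Sult2a8 fell in both genotypes, with -1.42 ± 0.33 in wild-type and -5.75 ± 0.33 in Atf6a-/- liver. The cytochrome Cyp3a11 fell by 1.40 ± 0.14 in Atf6a-/- liver and Cyp2b10 rose there by 3.42 ± 0.58, and neither was called in wild-type liver. In wild-type liver this list had 1 fall and no rise, 1 fall and 1 rise without the arrays with high Xist, and neither without wild-type TM animal 2. Its count of higher interactions was 0, and 1 without the arrays with high Xist.

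**Figure D4:**
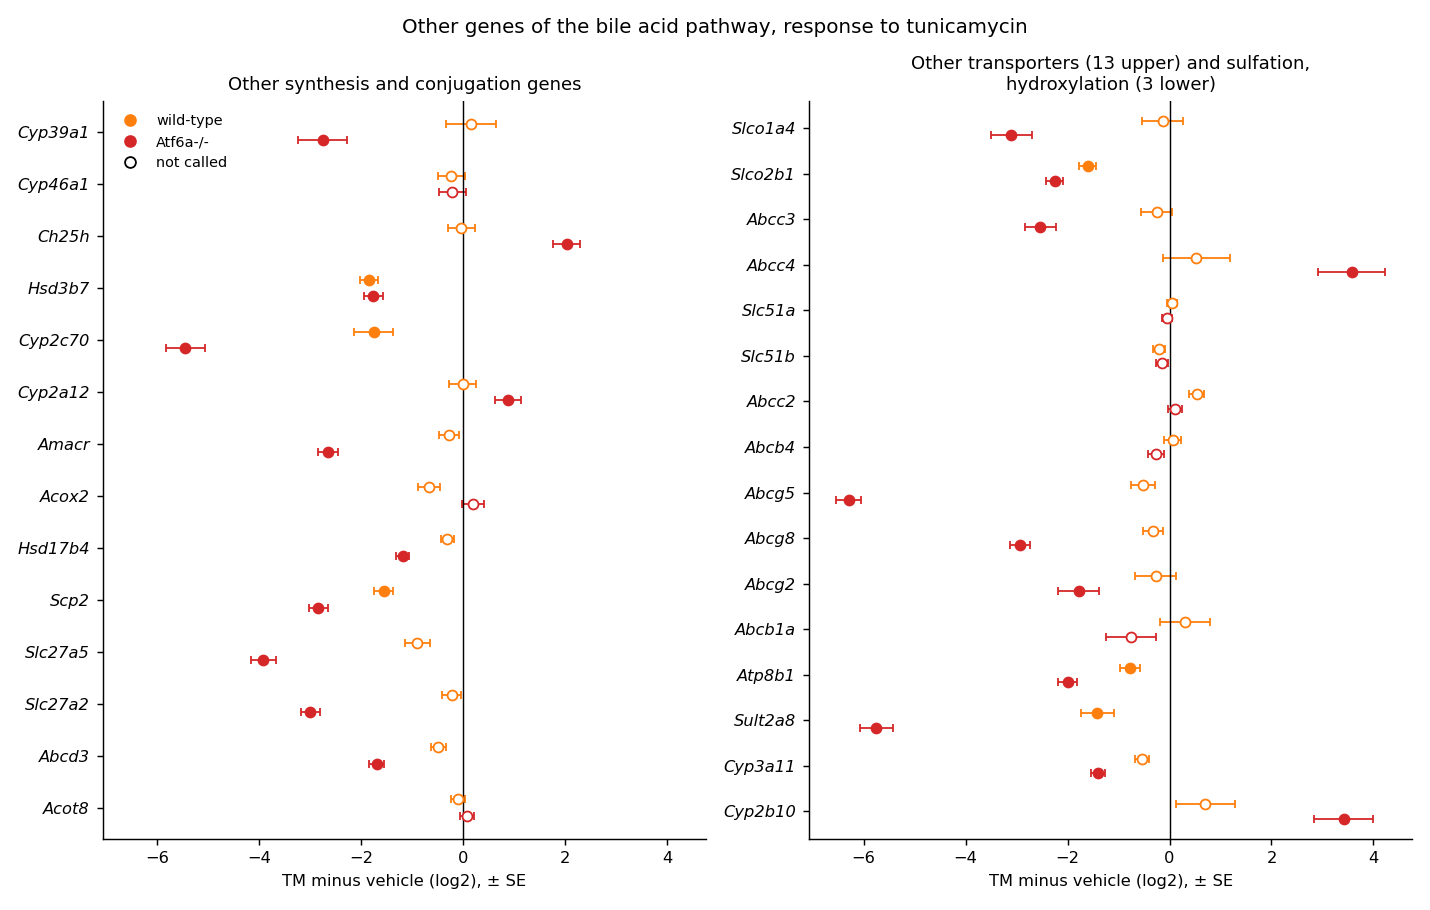
Change from vehicle to TM (log2, points) with its SE (bars) in wild-type and Atf6a-/- liver for the other genes of bile acid synthesis and conjugation (left) and of transport, sulfation and hydroxylation (right), filled where called. Cyp2c70, Slc27a5, Abcg5 and Sult2a8 show the deepest Atf6a-/- decreases, and Ch25h, Cyp2a12, Abcc4 and Cyp2b10 lie above 0.

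Most regulators of these genes fell in Atf6a-/- liver, and most were not called in wild-type liver. Of 21 measured, 5 fell and 1 rose in wild-type liver, 15 fell and 1 rose in Atf6a-/- liver (medians -0.52 and -1.55), and 13 were lower and none higher in Atf6a-/- than in wild-type liver after TM. The shares of all genes were 3.86% and 3.45%, 12.8% and 15.2%, and 8.45% and 11.3% for falls and rises in the same order. Nr1h4 (FXR), the bile acid receptor, fell in both genotypes (wild-type -1.09 ± 0.15, Atf6a-/- -2.03 ± 0.15, adjusted p = 0.00112 and 1.24e-06). Nr0b2 (SHP), a repressor that FXR induces, fell by 1.80 ± 0.50 in Atf6a-/- liver (adjusted p = 0.0166), beside -0.58 ± 0.50 in wild-type. Hnf4a, an activator of many hepatocyte genes, fell in both genotypes (wild-type -0.71 ± 0.16, Atf6a-/- -1.18 ± 0.16, adjusted p = 0.0199 and 0.000118), and its interaction was not called (-0.47 ± 0.23, adjusted p = 0.261). The coactivator Ppargc1a was at 0.53 ± 0.41 in wild-type and fell by at least 3.39 ± 0.41 in Atf6a-/- liver, where its TM mean was under the highest array median.

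Other nuclear receptors and hepatocyte factors fell further in Atf6a-/- than in wild-type liver, with a called interaction for each of the 7 named from Rxra to Fgfr4. Of all 21 regulators the interaction was called lower for 10, higher for none and not called for 11. Among all genes 6.69% were lower and 7.56% higher. Without the arrays with high Xist it was called lower for 8 regulators. Rxra, the heterodimer partner of receptors such as Nr1i3 (CAR) and Ppara, fell by 3.01 ± 0.15 in Atf6a-/- liver beside -0.42 ± 0.15 in wild-type. Nr1i3 fell by 4.81 ± 0.30 beside -0.92 ± 0.30. Ppara, the fatty acid receptor, changed by -1.20 ± 0.18 and -4.91 ± 0.18 in the wild-type and Atf6a-/- responses, and Cebpa, a factor of the differentiated hepatocyte, by -1.26 ± 0.24 and -3.42 ± 0.24, all called. The clock output factor Dbp fell by 5.20 ± 0.31 in Atf6a-/- liver beside -0.73 ± 0.31 in wild-type. Nr5a2 (LRH-1), which acts on the Cyp7a1 and Cyp8b1 promoters, fell by 1.55 ± 0.16 in Atf6a-/- liver (adjusted p = 1.33e-05) beside -0.38 ± 0.16. Of the receptor pair for the intestinal hormone FGF15, Fgfr4 fell in both genotypes (wild-type -1.41 ± 0.20, Atf6a-/- -3.68 ± 0.20, the latter a lower bound). Its co-receptor Klb was at 0.25 ± 0.21 and 0.16 ± 0.21, not called. The single rise was that of Nfil3, a repressor that opposes Dbp, by 2.35 ± 0.53 and 3.31 ± 0.53 (adjusted p = 0.0205 and 0.000449). The wild-type call of Nfil3 was absent without the arrays with high Xist.

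**Figure D5:**
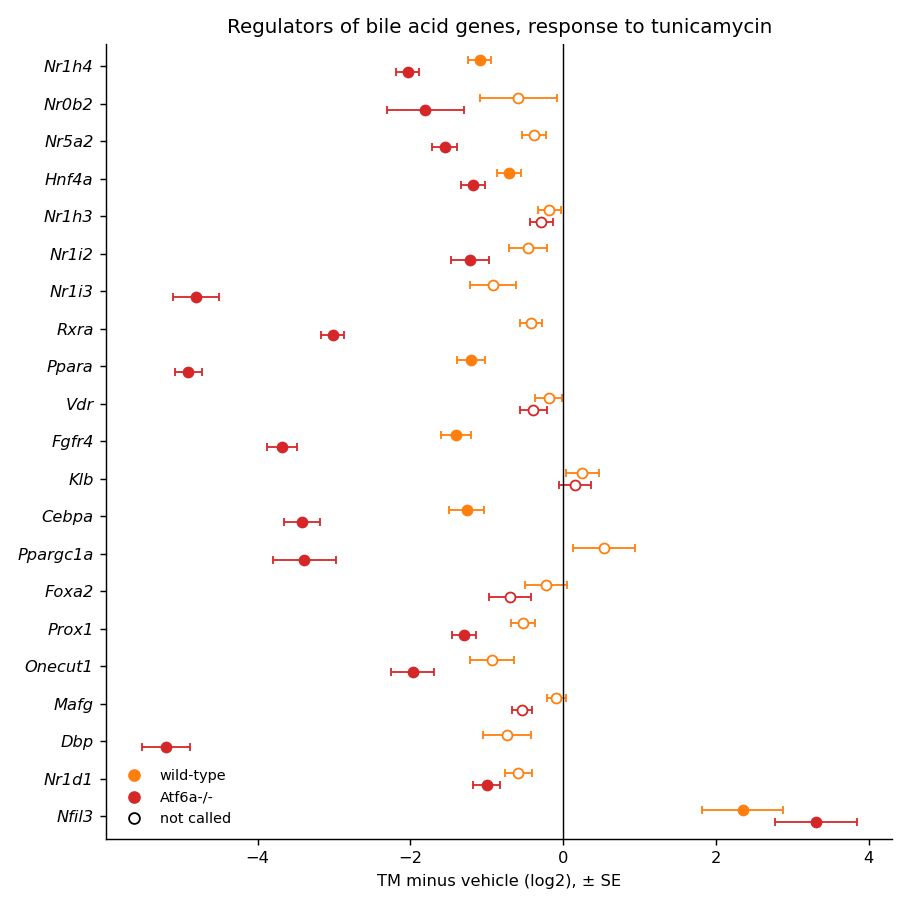
Change from vehicle to TM (log2, points) with its SE (bars) in wild-type and Atf6a-/- liver for 21 regulators of bile acid genes, filled where called. Dbp, Ppara and Nr1i3 fell most in Atf6a-/- liver, Nfil3 rose in both genotypes, and Klb, Nr1h3 and Vdr lie near 0.

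Markers of the cell types of liver were read beside these changes. The summed level of the 9 hepatocyte markers was 17.3 to 17.4 in wild-type vehicle, 17.2 to 17.4 in Atf6a-/- vehicle, 16.8 to 17.1 in wild-type TM and 16.4 to 16.5 in Atf6a-/- TM animals. In Atf6a-/- liver 6 of the 9 fell, where 12.8% of all genes fell, from -0.76 ± 0.10 for Ttr to -2.29 ± 0.22 for Apob. Albumin (Alb), at -0.48 ± 0.10 (adjusted p = 0.00242), was under the 1.5-fold limit, and Ahsg was at -0.06 ± 0.15 (adjusted p = 0.835). Their median change of -1.12 stood beside -4.23 for the 10 bile acid genes. Of 5 cholangiocyte markers limma called none in the Atf6a-/- response, where 1, Krt19, had an unadjusted p under 0.05, and 2 or 3 of them lay under the highest array median in each group. The summed level of 5 neutrophil markers was 6.90 to 7.17 in wild-type vehicle, 6.68 to 7.14 in Atf6a-/- vehicle, 8.00 to 8.98 in wild-type TM and 9.10 to 11.3 in Atf6a-/- TM animals, through S100a8 and S100a9, while Mpo, Camp and Ltf lay under that median in each group. The Kupffer cell and macrophage sum was 11.8 to 12.2, 11.9 to 12.5, 11.1 to 11.5 and 11.4 to 11.7 in the same order. Its 8 markers moved in both directions. In Atf6a-/- liver 4 fell and 2 rose, with changes from -2.24 to 3.07, where 12.8% of all genes fell and 15.2% rose. The part of these cell types in the changes of the bile acid genes was not tested.

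The genes of the array whose course was closest to that of a member were found by the root mean square difference of log2 levels over the 12 arrays, each gene centred on its mean, among 6585 genes with a mean level of at least 7. For Slc10a1 the nearest were Otc, the urea cycle carbamoyltransferase, at 0.26, Ces1c at 0.36 and Acaa1b at 0.41. Cyp8b1 stood nearest to Hrg (0.52), Upp2 (0.53) and Hp (0.53), Slco1b2 to Klkb1 (0.34), Saa4 (0.34) and Pipox (0.38), and Cyp7a1 to Cyp2c54 (0.41), Gamt (0.44) and Gsta4 (0.48). Akr1d1 was nearest to Spp2 (0.35), Car5a (0.39) and Cyp2c68 (0.41), Abcb11 to Pcyox1 (0.14), Akr7a5 (0.17) and Isoc1 (0.20), Cyp27a1 to H2-Q10 (0.18), Cyp4v3 (0.18) and Ahr (0.19) and Baat to Rhbg (0.14), Cyp2j5 (0.16) and 1300017J02Rik (0.16). Cyp7b1 and Slco1a1, which followed the animals with high Xist, were farthest from their nearest genes. These were Cyp2d9 at 0.70 and Serpina12 at 0.60, and Elovl3 was among the nearest 3 of Slco1a1. The distance is not scaled by a gene's spread, and Cyp7b1 and Slco1a1 had the largest group SDs of the members (2.67 and 2.86). Within the set the closest pair was Cyp27a1 and Abcb11 (0.26) and the most distant Cyp7b1 and Slc10a1 (3.28). These distances describe 12 arrays that share their groups.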

How the data were processed

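Liver RNA of 12 mice was hybridised to Affymetrix arrays, 1 array per animal. Log2 values were deposited, computed by the authors with RMA, which corrects background, equalizes the arrays by quantiles and summarises probes per set (affy and limma are also named in the submitters' processing notes, with no version), so that arrays share nearly 1 distribution and values at the low end have no detection call. Values ran from 2.38 to 14.91. All 45037 probe sets other than 64 AFFX controls were tested as deposited, with no filter. The platform table gave 34945 of them 1 gene symbol, 932 several and 9160 none. Genes were read from the brightest probe set. The members and all gene lists were chosen with earlier results of these data known.

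One mean per group was fitted with limma 3.58.1 in R 4.3.3 over all 12 arrays, and 5 comparisons were drawn by contrasts with moderated tests, two-sided, and Benjamini-Hochberg adjustment over all probe sets of a comparison. A call needed an adjusted p under 0.05 and over 1.5-fold. Errors beside changes are standard errors from the fit, which shares 1 estimate of the spread over the 4 groups of 3. Where the lower group's mean was under the highest array median of 4.71, no fold is given and the change is a lower bound. The scripts were tested on simulated data. Named genes were all members, Atf6, the regulators, up to 2 rises and 2 falls per list and comparison among those called, the 3 nearest genes per member, and markers. Per comparison 30 alternatives were run (27 for the interaction), plus list counts without the arrays with high Xist and without wild-type TM animal 2, chosen after seeing the data. Sult2a1 had no probe set with 1 symbol and was not analysed here. One planned promoter motif and 1 listed regulator are not reported here. Promoter windows came from RefSeq (GRCm38.p6); Cyp7a1, Cyp7b1 and Baat were not in that table. Tables were made in Python 3.11.15 with pandas 2.3.3 and numpy 2.4.6, and plots with matplotlib 3.10.9.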

Additional observations from a re-analysis of the deposited data

Results flagged for a closer look

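For 6 genes the response to TM differed between the genotypes by the interaction term of limma, the Atf6a-/- response minus the wild-type response on the log2 scale: -6.52 for Slc10a1, -6.12 for Cyp8b1, -5.06 for Slco1b2, -4.29 for Akr1d1, -3.49 for Cyp7a1 and -1.47 for Abcb11. Each was called under all 27 alternatives. The Atf6a-/- TM mean of Akr1d1 was under the highest array median, so that its value is a lower bound. Single Atf6a-/- TM animals of Slc10a1 (1) and Cyp7a1 (2) also lay under that median, so their values may be limited by the floor of the array. In Cyp8b1 the wild-type response was -0.08 with overlapping groups. The wild-type responses of the other 5 genes ran from -1.05 for Abcb11 to -2.28 for Cyp7a1. That of Akr1d1 (-1.27) was not called (limma adjusted p = 0.118).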

How the results depend on the processing

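Arrays, 3 per group, limit the precision. No called change turned its direction in any alternative. The count of members called stayed at 7 to 10 in the Atf6a-/- response, 6 or 7 in the interaction and 0 without TM. With the methods' t-test after Benjamini-Hochberg adjustment it fell from 5 to 0 in the wild-type response and from 7 to 3 between the genotypes after TM, and unadjusted it was 6 and 7. Leaving out 1 array gave 4 to 5 calls in the wild-type response, 7 to 9 in the Atf6a-/- response, 6 to 7 between genotypes after TM and 6 to 7 in the interaction. Of single genes, Slco1b2 in wild-type liver lost its call most often (11 of 30 alternatives, adjusted p up to 0.204), then Cyp27a1 between the genotypes after TM (8 of 30, adjusted p up to 0.223) and Baat in Atf6a-/- liver (3 of 30), while Cyp27a1 gained an interaction call in 7 of 27. Shifting arrays by the spike-ins moved the median change of all probe sets in Atf6a-/- liver from -0.01 to 0.47, and shifting by Btf3 and Ppia moved it to -0.53. Btf3 itself rose there by 1.13, and the probe set of Ppia is shared with another gene. No member was called as rising under either shift, though the uncalled wild-type change of Cyp8b1 became 0.27 with the spike-ins. Both shifts were smaller than the 1.5-fold limit, so that neither turns the direction of a called change. The animal number of the titles as a replicate block left the counts at 5 in the wild-type response, 7 between the genotypes after TM and 6 in the interaction and gave 9 in the Atf6a-/- response, by adding Slco1a1 (-2.89, adjusted p = 0.0327). In no 2 groups did all same-numbered pairs correlate above 0.1 (correlations of deviations from group means ran from -0.18 to 0.37). The numbers were therefore not taken to pair the samples, but this limit cannot exclude a pairing. Same-numbered pairs were at 0.37, 0.18 and 0.07 between the vehicle groups and at -0.09, 0.15 and -0.02 between the TM groups. The cause of these differences was not tested.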
